A study of Mus musculus with 16 samples.

Results

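The dual-specificity MAP kinase phosphatases measured here were 10 genes, namely Dusp1, Dusp2, Dusp3, Dusp4, Dusp5, Dusp6, Dusp8, Dusp10, Dusp14 and Dusp16, taken by their symbol or an older synonym in the gene name column of the array files. Of these 10 genes, 9 had a probe by that rule, with 14 probes among the 41174 probes of the array. Dusp5 was not analysed here. All 14 probes met the brightness filter, which asks that a probe stand well above background on every array of some group, so all 9 genes entered the tests, among 17470 genes or unnamed features in all. RNA of adherent peritoneal macrophages from male mice of the strain BALB/cByJ-Lpin1fld/J was measured on 16 single-colour arrays, 4 in each of 4 groups. The groups were fld cells given LPS, fld cells left untreated, control cells given LPS and control cells left untreated. The fld (fatty liver dystrophy) mice lack normal lipin-1, the phosphatidate phosphatase encoded by Lpin1, and the control mice were heterozygotes, which carry 1 fld allele. LPS, the bacterial lipopolysaccharide that activates Toll-like receptor TLR4, was given at 100 ng/ml for 5 hours in medium without serum. The series asks how lipin-1 bears on gene expression during TLR4 stimulation. The mutation is carried by every cell of the mouse, so the macrophages are not the only cells without lipin-1 in these animals. The series' design text names 4 mice of each genotype. The labels do not say which arrays share a mouse. Where arrays of a group do, p-values over them would reflect technical spread alone. Where an LPS and an untreated array do, the fit used here leaves out that pairing.

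MAP kinases (ERK, JNK and p38) are switched on by phosphorylation of a threonine and a tyrosine in their activation loop, and dual-specificity phosphatases switch them off by removing both phosphates. In macrophages TLR4 activates all of these kinases, and several of the phosphatases are themselves induced by the pathway, which makes them negative feedback regulators of cytokine production. Dusp1, Dusp2, Dusp4 and Dusp5 encode inducible phosphatases of the nucleus. Dusp6 encodes a cytoplasmic phosphatase selective for ERK. Dusp8, Dusp10 and Dusp16 encode phosphatases that prefer JNK and p38. Dusp3 and Dusp14 encode small atypical members that lack the kinase-binding domain of the others.

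Levels are given as the log2 of the processed intensity of a probe minus the log2 of the 75th percentile of its array, so a level of 0 is as bright as that percentile. They compare 1 probe between arrays, never 1 gene with another. Across the 16 arrays 58.7% to 65.4% of spots were well above background, the 75th percentile was between 189 and 627 intensity units, and arrays of a group correlated at 0.961 to 0.993. The processed signal was lowest on the fld LPS arrays labelled replicate 4 (75th percentile 189) and replicate 2 (251). In 3 of the 4 Lpin1 probes the arrays labelled fld replicate 4 held a signal between -3.54 and -1.36, inside or above the control range of -4.43 to -1.99, while the other fld arrays were at or below -4.58. The other Lpin1 probe was well above background on all 16 arrays. It too was highest on the arrays labelled fld replicate 4, at -0.63 untreated and -0.33 with LPS, against at most -1.30 elsewhere. Differences of the 9 genes by their brightest probe that use fld arrays are therefore also given, singly or as a range, without both arrays labelled fld replicate 4. Each group lay on a slide and in a scan of its own, and in every comparison below slide and group cannot be told apart. All 8 macrophage markers examined were well above background on all 16 arrays, and so were 5 of 5 B cell and 5 of 5 mast cell markers. In such bulk samples, fewer cells of a type and less RNA per cell cannot be told apart.

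After LPS, Dusp16, Dusp14, Dusp1 and Dusp6 rose and Dusp3 fell in both genotypes, and Dusp4 also rose in control macrophages. Dusp16 had the largest difference of the 9 genes in both genotypes, at 3.61-fold in fld and 5.89-fold in control macrophages. In fld this order rested on all arrays being used. Without both arrays labelled fld replicate 4 the log2 difference was 1.72 for Dusp14 and 1.70 for Dusp16. Dusp2, Dusp8 and Dusp10 did not pass the test in either genotype. LPS was measured at 5 hours only, so neither these missed calls nor the order of the genes bears on other times. In fld macrophages 4 of 9 genes rose and 1 fell (limma, Benjamini-Hochberg adjusted p under 0.05), where 40.1% of all features were called, 21.9% higher and 18.2% lower. In control macrophages 5 of 9 rose and 1 fell, where 29.9% of all features were called, 14.8% higher and 15.2% lower. The median log2 difference of the 9 genes was 0.62 in fld and 0.75 in control macrophages, beside 0.06 and 0.03 over all features. The LPS and untreated arrays did not overlap for 5 of 9 genes in fld macrophages, where this held for 37.2% of all features, and for 5 of 9 in control macrophages, where it held for 32.8%. Both genotypes were compared with untreated cells of their own, so these comparisons share no arrays, but they share 1 estimate of the spread. Beside these calls, the mean level of the 8 macrophage markers was 3.77 to 5.09 on the fld LPS arrays and 5.48 to 5.71 on the fld untreated arrays, and 4.88 to 5.14 on the control LPS arrays and 5.45 to 5.58 on the control untreated arrays. That of the 5 mast cell markers was 1.77 to 3.33 with LPS and 1.38 to 3.18 untreated in fld, and 2.69 to 3.52 with LPS and 0.47 to 2.94 untreated in control cells. The mean of the neutrophil markers, of which 2 of 5 were well above background on all 16 arrays, was -4.87 to -4.31 with LPS and -5.72 to -4.49 untreated in fld, and -5.33 to -4.80 with LPS and -5.97 to -5.70 untreated in control cells. That of the 5 large peritoneal macrophage markers was 0.75 to 2.40 with LPS and 2.32 to 3.08 untreated in fld, and 1.83 to 2.61 with LPS and 2.47 to 3.0 untreated in control cells. The means did not overlap for the macrophage list in both genotypes and for the neutrophil list in control cells, and they overlapped for the other lists of the 9 examined. The members of these 2 lists did not move together. The group means of Cd14 and Lyz2 were higher with LPS in both genotypes, and those of the other macrophage markers were lower. For Lyz2, Itgam, Mertk and Fcgr1 the LPS and untreated arrays overlapped in both genotypes. In control cells the neutrophil marker Camp rose from -4.17 to -1.11, and Mpo was -2.82 untreated and -2.85 with LPS. Retnlg, Elane and Ngp were well above background on 0 control arrays. The part of these markers in the calls was not tested.

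**Figure D1:**
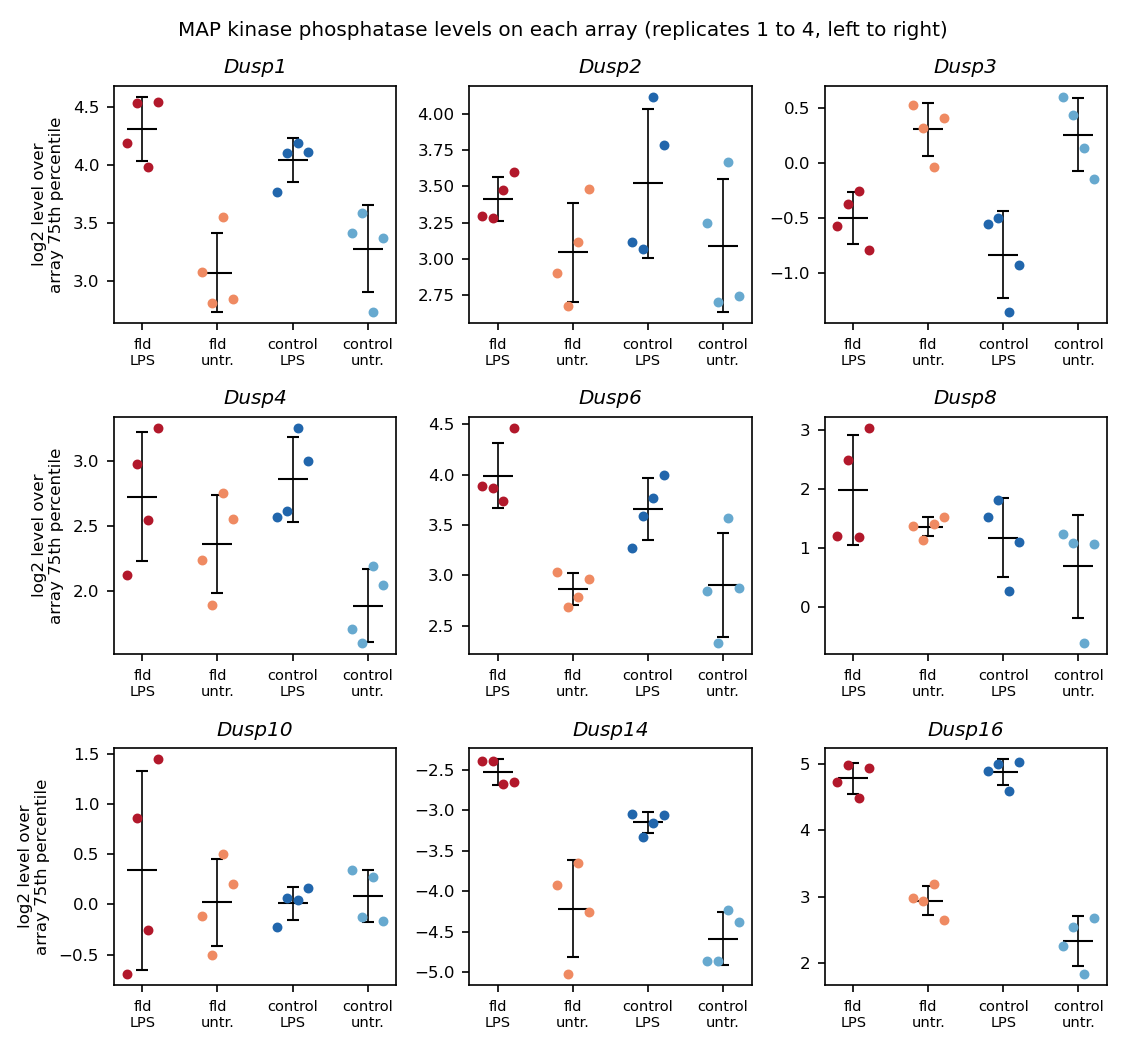
Log2 level of each of the 9 MAP kinase phosphatase genes (vertical axes, over the 75th percentile of the array) on the 16 arrays, in 4 groups (horizontal axes). Points are arrays, with replicates 1 to 4 from left to right, and the bars are the mean and SD of 4 arrays. In Dusp16 and Dusp14 all LPS arrays lie above all untreated arrays of the same genotype, and in Dusp3 all lie below.

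Dusp16 encodes MKP-7, a shuttling phosphatase that acts mainly on JNK. Its level was 4.73, 4.99, 4.48 and 4.95 on the fld LPS arrays and 2.97, 2.94, 3.18 and 2.65 on the fld untreated arrays. On the control LPS arrays it was 4.90, 5.0, 4.59 and 5.04, and on the control untreated arrays 2.25, 2.55, 1.83 and 2.68. In both genotypes every LPS array stood above every untreated array, and the fld and control LPS arrays covered almost the same range. The log2 difference of LPS against untreated was 1.85 (SE 0.18, limma adjusted p = 3.39e-06) in fld and 2.56 (SE 0.18, adjusted p = 1.76e-07) in control macrophages. Without both arrays labelled fld replicate 4 the fld difference was 1.70.

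Dusp16 had 3 probes on the array, at chr6:134729960-134730000, chr6:134751853-134751912 and chr6:134732307-134732366 on the minus strand, as the array files give them (genome build not given in the sources used here). The log2 differences of the 3 probes ran from 1.85 to 2.29 in fld and from 2.13 to 2.70 in control macrophages, and each passed the test when every probe was tested on its own. The control difference was the larger on each of the 3 probes, and no probe's difference between genotypes passed the test. The genes most like Dusp16 over the 16 arrays, after each gene's own mean was removed, were Il1b, Cxcl2 and Traf1. Il1b, the gene of the cytokine interleukin-1 beta, lay at a root mean square distance of 0.208 log2 units, Cxcl2, a neutrophil chemokine, at 0.213, and Traf1, a signalling adaptor, at 0.247. That likeness is a description over arrays that share the LPS contrast.

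Dusp14 encodes the atypical phosphatase MKP-6, which has also been described to act on the TAK1 and TAB1 kinase complex. Its level was -2.39, -2.39, -2.68 and -2.65 on the fld LPS arrays and -3.92, -5.02, -3.65 and -4.26 on the fld untreated arrays. The control LPS arrays had -3.04, -3.33, -3.16 and -3.06, and the control untreated arrays had -4.86, -4.86, -4.23 and -4.37. The LPS and untreated arrays did not overlap in either genotype. The log2 difference was 1.69 (SE 0.24, limma adjusted p = 8.14e-05) in fld and 1.44 (SE 0.24, adjusted p = 0.000331) in control macrophages. The second Dusp14 probe also passed the test in both, at 1.02 in fld and 1.37 in control macrophages. It was well above background on 14 of 16 arrays. Dusp14 was a dim gene, and with normexp background correction its differences shrank to 0.94 in fld and 0.69 in control macrophages, both still past the test. Without both arrays labelled fld replicate 4 the fld difference was 1.72.

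Dusp1 encodes MKP-1, a phosphatase of p38 and JNK known to limit cytokine output of LPS-treated macrophages. Its level was 4.19, 4.54, 3.98 and 4.54 on the fld LPS arrays and 3.07, 2.81, 3.55 and 2.85 on the fld untreated arrays. On the control LPS arrays it was 3.77, 4.10, 4.19 and 4.11, and on the control untreated arrays 3.42, 3.59, 2.73 and 3.37. All LPS arrays were above all untreated arrays of their genotype. The log2 difference was 1.24 (SE 0.20, limma adjusted p = 0.000308) in fld, or 2.36-fold, and 0.77 (SE 0.20, adjusted p = 0.0101) in control macrophages, or 1.70-fold. The fld difference was 1.09 without both arrays labelled fld replicate 4.

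Dusp6 encodes MKP-3, the cytoplasmic phosphatase of ERK. Its level was 3.89, 3.87, 3.74 and 4.46 on the fld LPS arrays and 3.03, 2.69, 2.78 and 2.97 on the fld untreated arrays. On the control LPS arrays it was 3.27, 3.59, 3.77 and 4.0, and on the control untreated arrays 2.85, 2.33, 3.57 and 2.87. The fld groups did not overlap, while in the control cells 1 untreated array reached into the LPS range. The log2 difference was 1.12 (SE 0.23, limma adjusted p = 0.00167) in fld and 0.75 (SE 0.23, adjusted p = 0.0229) in control macrophages. Without both arrays labelled fld replicate 4 the fld difference was 0.997. The call in control cells missed the threshold without control untreated replicate 1 (adjusted p = 0.0501) or 2 (0.0787), without control LPS replicate 3 (0.0512) or 4 (0.0767), with quantile normalization (0.0605) and with only the 2 control groups in the fit (0.0549).

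Dusp4 encodes MKP-2, a nuclear phosphatase of ERK and JNK. Its level was 2.13, 2.98, 2.55 and 3.26 on the fld LPS arrays and 2.24, 1.89, 2.76 and 2.55 on the fld untreated arrays. Control macrophages had 2.57, 2.62, 3.25 and 3.0 with LPS and, untreated, 1.71, 1.60, 2.19 and 2.05. The fld groups overlapped, and the control groups did not. The log2 difference was 0.37 (SE 0.25, limma adjusted p = 0.254) in fld, and 0.25 without both arrays labelled fld replicate 4, while in control macrophages it was 0.97 (SE 0.25, adjusted p = 0.00823). The second Dusp4 probe gave the same calls, with 0.52 in fld and 0.91 in control macrophages. The call in 1 genotype only is no difference between them: the test of that difference gave -0.61 (SE 0.35, adjusted p = 0.638), and -0.72 without both arrays labelled fld replicate 4.

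Dusp3 encodes VHR, an atypical phosphatase of ERK and JNK, and was the only one of the 9 genes that fell. Its level was -0.58, -0.37, -0.26 and -0.80 on the fld LPS arrays and 0.52, 0.31, -0.04 and 0.40 on the fld untreated arrays. In control macrophages it was -0.56, -0.50, -1.36 and -0.93 with LPS and, untreated, 0.60, 0.43, 0.13 and -0.15. No LPS array reached the untreated range of its genotype. The log2 difference was -0.80 (SE 0.21, limma adjusted p = 0.00705) in fld and -1.09 (SE 0.21, adjusted p = 0.00103) in control macrophages. Without both arrays labelled fld replicate 4 the fld difference was -0.67 (adjusted p = 0.0497).

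The other 3 genes were left without a call. Dusp2, which encodes the nuclear phosphatase PAC-1 of activated leukocytes, had levels of 3.28 to 3.60 on the fld LPS arrays and 2.68 to 3.48 on the fld untreated arrays, against 3.07 to 4.12 with LPS and 2.70 to 3.67 without in control cells. Its intervals, -0.18 to 0.92 in fld and -0.12 to 0.98 in control macrophages (95% confidence), leave room for close to a doubling. The fld difference was 0.37, and 0.45 without both arrays labelled fld replicate 4. Dusp8 and Dusp10, which encode phosphatases of JNK and p38, had the widest spread of the family on the fld LPS arrays.

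Dusp10 stood at -0.70, 0.86, -0.26 and 1.45 on the fld LPS arrays and at -0.12, -0.50, 0.50 and 0.20 on the fld untreated arrays. On the control LPS arrays it stood at -0.23, 0.06, 0.04 and 0.17, and on the control untreated arrays at 0.35, -0.12, 0.27 and -0.16. The fld LPS arrays split, with replicates 2 and 4 above all 12 arrays of the other groups and replicates 1 and 3 among the 3 lowest of all 16. The SD of Dusp10 there was 0.99, larger than that of 97.7% of all features in that group. Its log2 difference was 0.32 (SE 0.36) in fld, or 0.01 without both arrays labelled fld replicate 4, and -0.07 (SE 0.36) in control macrophages.

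Dusp8 stood at 1.21, 2.50, 1.19 and 3.05 on the fld LPS arrays and at 1.37, 1.15, 1.41 and 1.53 on the fld untreated arrays. Control macrophages had 1.53, 1.81, 0.27 and 1.1 with LPS and 1.23, 1.08, -0.62 and 1.07 untreated. Replicates 2 and 4 of the fld LPS arrays were again above all other arrays, and the SD of 0.94 there exceeded that of 97.1% of all features. The second Dusp8 probe had its highest values on the same arrays, at 0.22 and 0.32, against -1.06 and -1.26 on fld LPS replicates 1 and 3. Replicates 2 and 4 were also the fld LPS arrays with the lowest 75th percentile of signal. Their macrophage marker means were 4.76 and 3.77, against 5.07 and 5.09 on replicates 1 and 3, and their mast cell marker means were 2.93 and 3.33, against 2.27 and 1.77. Of the 9 marker lists 7 split these arrays in that way, with the large peritoneal macrophage mean also lower on replicates 2 and 4 (1.83 and 0.75, against 2.40 and 2.21) and the neutrophil (-4.31 and -4.33, against -4.87 and -4.87), mesothelial (-4.34 and -4.48, against -5.27 and -5.12), T cell (-1.48 and -0.87, against -1.72 and -1.91) and dendritic cell means (-2.77 and -2.38, against -3.20 and -2.88) higher. The part of these in the Dusp8 and Dusp10 spread was not tested. Dusp8 also spread widely in control cells, with an SD of 0.88 untreated and 0.67 with LPS, beside 0.16 in untreated fld cells. The Dusp8 log2 difference was 0.62 (SE 0.47) in fld, or 0.32 without both arrays labelled fld replicate 4, and 0.49 (SE 0.47) in control macrophages by the brighter probe. Without control untreated replicate 3, where Dusp8 stood at -0.62, the control difference was 0.05. The second probe gave -0.02 in fld and 0.78 in control macrophages, none past the test.

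**Figure D2:**
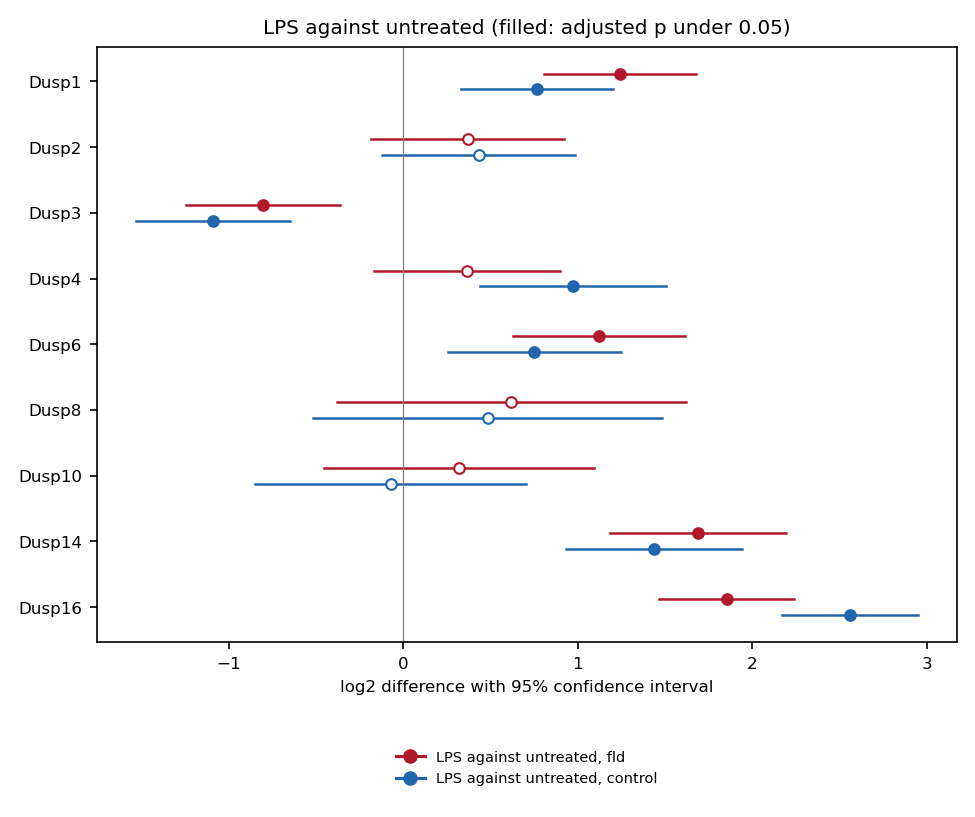
Log2 difference of LPS against untreated for the 9 genes (horizontal axis, with the 95% confidence interval as a line) in fld and control macrophages, 4 arrays a group. Filled points passed the adjusted p threshold of 0.05. With all arrays used, Dusp16 lies farthest to the right in both genotypes, and Dusp3 alone lies left of 0 with a filled point.

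**Figure D3:**
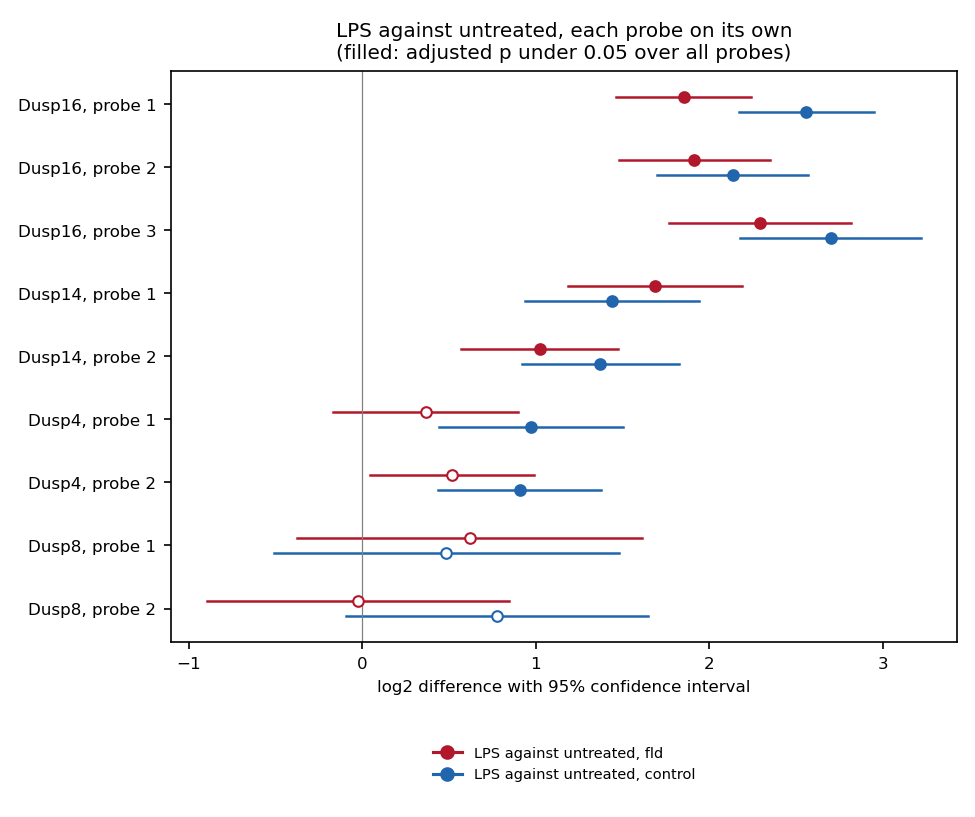
Log2 difference of LPS against untreated (horizontal axis, with the 95% confidence interval) for each probe of the 4 genes with more than 1 probe, tested on its own over all probes, with probe 1 the brightest of its gene. The 3 Dusp16 and 2 Dusp14 probes have filled points in both genotypes, the 2 Dusp4 probes in control macrophages, and the 2 Dusp8 probes in neither.

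The promoters of the 5 genes called in both genotypes, 4 that rose and 1 that fell, are shown because these calls carry the LPS result. Each is the 250 bases before the annotated start site, 5′ to 3′ on the strand of the gene, from RefSeq (GRCm38.p6). Capitals mark a full cAMP response element (CRE, TGACGTCA, the target of CREB and ATF factors) or a GC box (GGGCGG on either strand, the target of Sp1). Promoters were listed for 9 of the 10 genes of the family, Dusp5 among them and Dusp4 not. The windows lie at chr6:134792629-134792878 (minus strand) for Dusp16, chr11:84068358-84068607 (minus) for Dusp14, chr17:26508473-26508722 (minus) for Dusp1, chr10:99262981-99263230 (plus) for Dusp6 and chr11:101984792-101985041 (minus) for Dusp3.

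Dusp16: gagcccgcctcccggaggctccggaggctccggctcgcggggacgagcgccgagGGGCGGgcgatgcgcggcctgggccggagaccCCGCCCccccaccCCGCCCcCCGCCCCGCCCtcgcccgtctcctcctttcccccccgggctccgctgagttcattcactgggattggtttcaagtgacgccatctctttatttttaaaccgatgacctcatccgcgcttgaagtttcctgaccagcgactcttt

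Dusp14: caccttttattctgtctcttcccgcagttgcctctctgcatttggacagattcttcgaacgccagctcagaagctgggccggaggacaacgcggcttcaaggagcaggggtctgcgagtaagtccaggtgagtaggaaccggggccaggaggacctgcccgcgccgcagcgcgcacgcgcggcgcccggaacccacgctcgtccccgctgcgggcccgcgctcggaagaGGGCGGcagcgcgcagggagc

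Dusp1: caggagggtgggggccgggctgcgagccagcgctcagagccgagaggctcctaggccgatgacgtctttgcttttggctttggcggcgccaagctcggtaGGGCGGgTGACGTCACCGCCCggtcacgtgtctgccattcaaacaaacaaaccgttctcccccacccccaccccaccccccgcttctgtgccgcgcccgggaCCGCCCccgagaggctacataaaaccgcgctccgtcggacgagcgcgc

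Dusp6: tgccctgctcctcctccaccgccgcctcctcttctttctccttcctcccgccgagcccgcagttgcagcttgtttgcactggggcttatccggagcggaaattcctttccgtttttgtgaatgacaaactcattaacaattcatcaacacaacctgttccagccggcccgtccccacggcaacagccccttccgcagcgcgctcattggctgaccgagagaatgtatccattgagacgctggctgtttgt

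Dusp3: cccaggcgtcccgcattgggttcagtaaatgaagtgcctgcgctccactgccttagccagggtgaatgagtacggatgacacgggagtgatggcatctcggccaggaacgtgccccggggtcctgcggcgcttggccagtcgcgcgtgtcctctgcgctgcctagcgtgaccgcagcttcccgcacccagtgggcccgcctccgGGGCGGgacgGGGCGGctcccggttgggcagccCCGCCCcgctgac

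Dusp16 held 5 GC boxes, 2 of which overlap by a base, between 196 and 134 bases before the start site. Dusp1 held 1 CRE 143 to 136 bases before the start site, between 2 GC boxes, and 3 GC boxes in all. Dusp3 held 3 GC boxes, Dusp14 held 1, and Dusp6 held neither motif. GC boxes were also found in the members without a call, with 3 in Dusp2, 3 in Dusp8 and 2 in Dusp10. Among all 32851 listed promoters, 1.55% held a CRE and 32.7% a GC box. Dusp8, which did not pass the test, was the other member with a CRE, and it held 2. None of the 9 windows held an AP-1 site (TGANTCA with G or C at N, in 4.46% of all promoters), the NF-kB consensus (7.25%) or TATAAA (12.4%) on either strand. The CArG box of serum response elements, in 1.47% of all promoters, was found 2 times in Dusp5 and in no other member. These matches are descriptions of letters in these windows.

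Between genotypes no gene of the family passed the test, with or without LPS. In untreated cells 0 of 9 genes were called (limma; 1 of 9 had an unadjusted p under 0.05, as did 3250 of all features), where 5.25% of all features were called, and no gene's groups stood apart without overlap, where 15.3% of all features did. With LPS 0 of 9 were called (1 of 9 at an unadjusted p under 0.05, and 4663 of all features), where 17.1% of all features were called, 16.2% higher in fld. Of those calls 94.7% were higher in fld, against 23.3% of the calls with the deposited table's scaling. The difference of the LPS responses called 0 of 9 genes and 0 of all 17470 features (0%), with 1 gene and 1650 features at an unadjusted p under 0.05. These comparisons share arrays with those above and with each other. In a design of 4 arrays a group these missed tests do not show that the genotypes were alike.

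**Figure D4:**
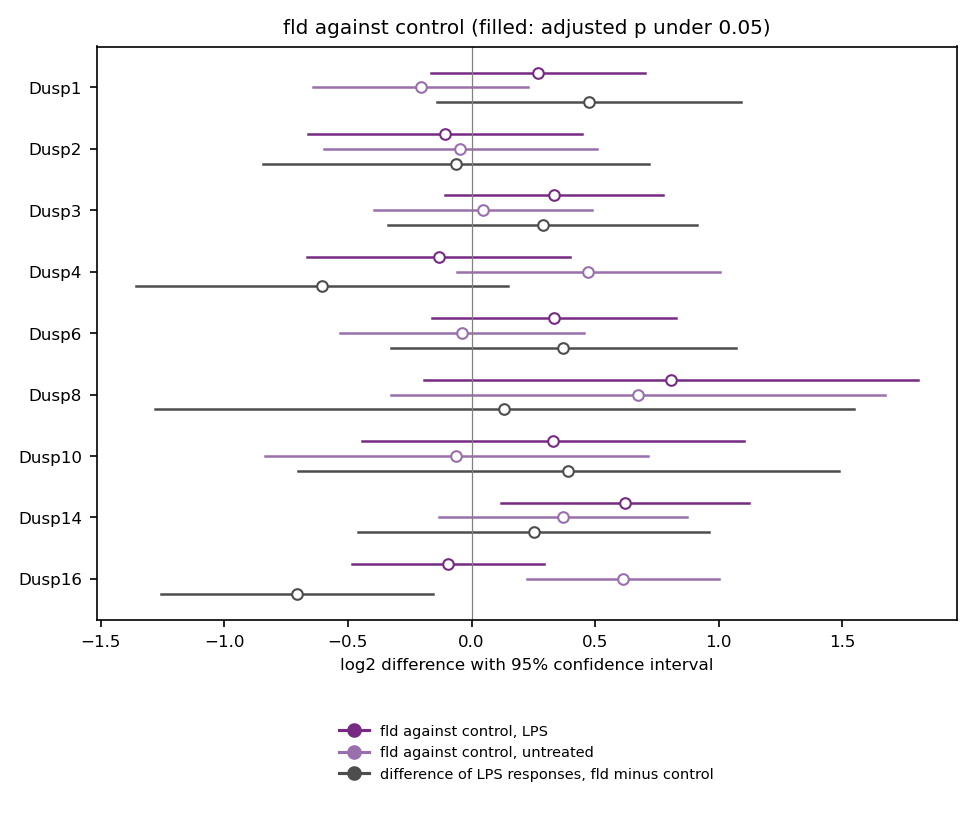
Log2 difference of fld against control macrophages with LPS and untreated, and the difference of the LPS responses (fld minus control), for the 9 genes (horizontal axis, with the 95% confidence interval as a line). No point is filled, so none passed the adjusted p threshold of 0.05. The intervals of Dusp14 with LPS and of Dusp16 untreated and in the difference of responses exclude 0 before adjustment.

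By the brightest probe of each gene, Dusp16 came nearest to a genotype difference in untreated cells, with the levels given above. The log2 difference of fld against control was 0.61 (SE 0.18, limma adjusted p = 0.0670), and the groups overlapped, since control replicate 4 was above fld replicate 4. The other Dusp16 probes gave 0.40 and 0.50. The call was made without control untreated replicate 4 (0.73, adjusted p = 0.0454) and without both arrays labelled fld replicate 4 (0.71, adjusted p = 0.0454). With LPS the difference was -0.09 (SE 0.18, adjusted p = 0.806), -0.15 without both arrays labelled fld replicate 4, and -0.49 with the deposited table's scaling, where it was called (adjusted p = 0.0324). The difference of the LPS responses, fld minus control, was -0.71 (95% confidence interval -1.26 to -0.16, adjusted p = 0.394), and -0.86 without both arrays labelled fld replicate 4 (adjusted p = 0.375). On the other probes it was -0.22 and -0.41.

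Dusp14 was the 1 gene of 9 whose fld and control arrays did not overlap with LPS, as was so for 19.9% of all features. Its log2 difference was 0.62 (SE 0.24, limma adjusted p = 0.0915), and the second probe gave 0.37. It was called with normexp background correction (0.42, adjusted p = 0.0421), without fld untreated replicate 2 (0.62, adjusted p = 0.0191) and with only the 2 LPS groups in the fit (0.62, adjusted p = 0.0156). It was 0.66 without both arrays labelled fld replicate 4 (adjusted p = 0.147). In untreated cells the brightest Dusp14 probe gave 0.37 (limma adjusted p = 0.447). With every probe tested on its own, the second Dusp14 probe gave 0.72 untreated (limma adjusted p = 0.0759). The brightest Dusp16 probe gave 0.61 there (0.0786). The second Dusp14 probe was well above background on only 2 of the control untreated arrays. By the brightest probe of each, the other 7 genes differed by -0.13 to 0.81 with LPS and by -0.21 to 0.67 untreated. Dusp8 was the highest in each. The second Dusp8 probe gave 0.02 with LPS and 0.82 untreated. Its difference of responses was -0.80, against 0.13 on the brightest Dusp8 probe, and none of these passed the test. Without both arrays labelled fld replicate 4 the 7 genes ran from -0.31 to 0.45 with LPS and from -0.19 to 0.62 untreated. Dusp10 with LPS was then -0.04 in place of 0.33. The untreated value of the brightest Dusp8 probe was 0.24, below the 0.47 of Dusp4, without control untreated replicate 3. With the deposited table's scaling, which shifted the median of all features by -0.40, the 7 ran from -0.53 to 0.41 with LPS. The differences of responses ran from -0.71 to 0.47 over the 9 genes, and from -0.86 to 0.42 without both arrays labelled fld replicate 4, and the interval was widest for Dusp8, at -1.28 to 1.55.

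The rest of the MAP kinase pathway, taken from lists of textbook members, held genes that rose and genes that fell with LPS, to be read beside the 40.1% of all features called in fld and the 29.9% in control macrophages. Of 20 other dual-specificity and related phosphatases tested, 4 rose and 3 fell in fld, and 3 rose and 4 fell in control macrophages. Ptpn7, a tyrosine phosphatase of ERK and p38, rose by 1.13 in fld and 1.23 in control macrophages on the log2 scale, and Dusp28 (-1.86 in fld and -0.75 in control) and Dusp22, an atypical phosphatase (-1.22 in fld and -0.73 in control), fell. The Dusp28 call in control cells was lost with quantile normalization. The 7 calls among these phosphatases became 4 in fld without both arrays labelled fld replicate 4, and 4 in control macrophages without control untreated replicate 1, control LPS replicate 2 or control LPS replicate 4. Of 11 MAP kinases, 6 rose and 3 fell in fld, and 5 rose and 3 fell in control macrophages. With the deposited table's scaling 3 rose and 3 fell in each, since the calls of Mapk7 and Mapk11 were lost in both and that of Mapk8 in fld. Mapk14, the gene of p38 alpha, fell by 1.26 in fld and 1.18 in control macrophages, and Mapk3, the gene of ERK1, fell by 0.77 in fld and 0.80 in control macrophages. Mapk15, an atypical MAP kinase, rose by 2.50 in fld and 2.33 in control macrophages.

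Upstream, 2 of 7 MAP2 kinases rose in fld and 3 in control macrophages, with none lower, and Map2k4, a kinase of JNK, rose by 0.56 in fld and 0.66 in control macrophages. The 2 calls in fld became 1 without fld untreated replicate 1 or 2 or fld LPS replicate 1 or 3. Of 14 MAP3 kinases, 2 rose and 3 fell in fld and 2 rose and 2 fell in control macrophages. Map3k8, which encodes the TPL2 kinase that links TLR4 to ERK, rose by 1.74 in fld and 2.0 in control macrophages. Of 10 kinases activated by MAP kinases, 4 rose and 3 fell in fld, and 5 rose and 2 fell in control macrophages, among them Mapkapk2, the p38 substrate kinase MK2, at 0.75 in fld and 0.88 in control macrophages. The 7 calls in fld became 4 without fld untreated replicate 1 and 4 without both arrays labelled fld replicate 4, and the fld calls of Map2k4 and Mapkapk2 were lost with the deposited table's scaling by the array median. Of 10 feedback inhibitors of ERK, 4 rose and 1 fell in fld and 3 rose and 1 fell in control macrophages. Spry1, a Sprouty protein that restrains ERK signalling, rose by 2.01 in fld and 1.96 in control macrophages. Of 21 output genes of the MAP kinases, 8 rose and 3 fell in fld and 7 rose and 2 fell in control macrophages. Fosl1, an AP-1 subunit, rose by 1.91 in fld and 1.87 in control macrophages, and Egr2 fell by 1.15 in fld and 0.81 in control macrophages.

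**Figure D5:**
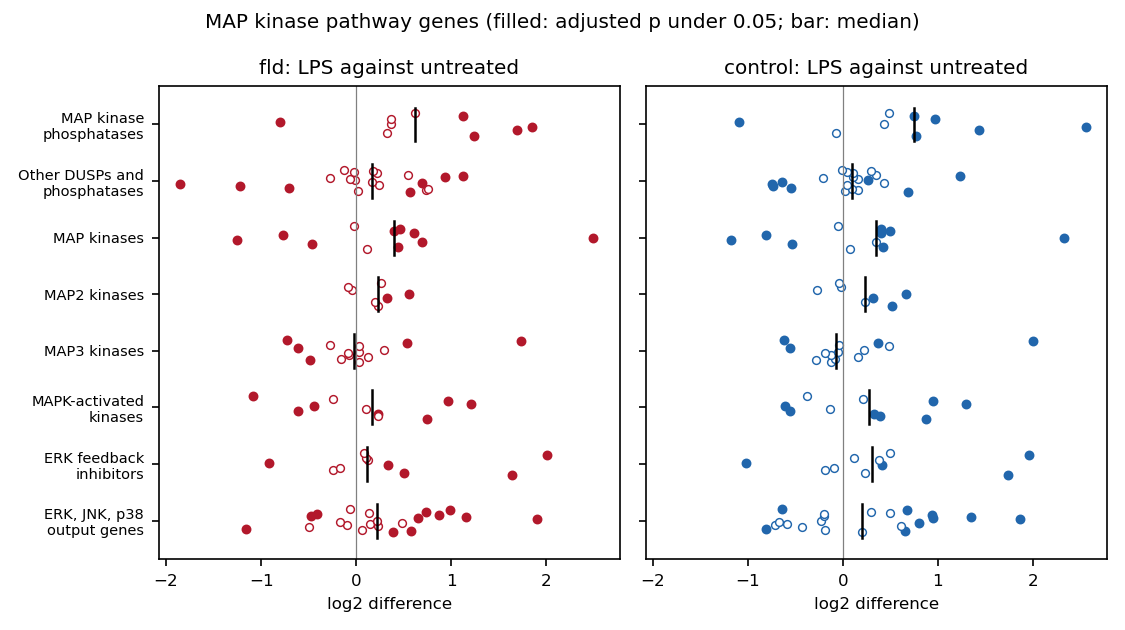
Log2 difference of LPS against untreated (horizontal axes) of the 9 MAP kinase phosphatases and of each tested gene in 7 lists of pathway genes, in fld (left) and control macrophages (right). Points are genes, filled where the adjusted p was under 0.05, and the bar is the median of the row. The phosphatase row has the highest median in both panels, 0.62 in fld and 0.75 in control macrophages, and every other row with calls holds some filled points on each side of 0 except the MAP2 kinases.

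Between genotypes, where 17.1% of all features were called with LPS and 5.25% untreated, 4 of these 20 phosphatases were higher in fld with LPS, namely Ptpn5 (1.39), Dusp15 (1.2), Dusp18 (1.12) and Dusp9 (0.90). The 4 calls became 2 without control LPS replicate 3, control LPS replicate 4 or fld LPS replicate 4, and Dusp15 and Dusp18 were no longer called without both arrays labelled fld replicate 4 or with quantile normalization. In untreated cells 0 of these 20 were called, and 2 were without control untreated replicate 1. With LPS and the deposited table's scaling 3 of the 20 were higher and 11 lower, and 10 of 14 MAP3 kinases were called in place of 0. Under that scaling 8642 of all 17470 features were called, 2015 higher and 6627 lower. On the LPS arrays the T cell marker mean was -1.91 to -0.87 in fld and -2.11 to -2.04 in control cells. The eosinophil marker mean there was -3.88 to -3.19 in fld and -4.92 to -4.30 in control cells. Both means stood apart without overlap, but the T cell markers did not move together. Cd3e (-0.49 in fld and -1.90 in control cells), Cd4 (-1.96 and -2.94) and Cd8a (-4.05 and -5.02) were higher in fld. Lck (1.29 in fld and 1.59 in control cells) and Cd3g (-2.27 and -2.04) were lower in fld. Of these markers, 4 of 5 T cell and 1 of 4 eosinophil markers were well above background on all 16 arrays, and their part in the genotype results, those of the 9 genes included, was not tested. Of 11 MAP kinases 2 were higher and 1 lower with LPS, and 1 was higher and 1 lower in untreated cells. Mapk15 was higher in fld in both states, by 1.4 with LPS and 1.24 untreated, and the untreated call was lost with normexp background correction, as was that of Mapk12, which left 0 of 11. The Mapk13 call with LPS (0.73) was lost with the deposited table's scaling (0.33) and with quantile normalization (0.43). Of 21 output genes 3 were higher in fld with LPS, namely Etv4 (0.98), Fosb (0.88) and Zfp36 (0.40), of which Fosb alone was called without both arrays labelled fld replicate 4. The Zfp36 call was also lost with normexp (0.20) and with the deposited table's scaling (0.00).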

How the data were processed

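RNA was labelled with Cy3 and hybridised to 1-colour arrays. Per the file headers, the deposited processed intensity came from Agilent Feature Extraction 9.5.1.1 (array design 014868) and had its background subtracted. The deposited series table holds the ratio of that intensity to the median of its array, as a check on all arrays showed, and it served as an alternative. From the deposited intensity the log2 was taken and the log2 of the 75th percentile of each array's non-control spots subtracted, with flagged outlier spots (0.208% of values) set to missing. Probes that stood well above background on every array of some group entered the tests (25535 of 41174), and the brightest probe stood for a gene, which left 17470 features. limma 3.58.1 in R 4.3.3 fitted 1 mean per group over 16 arrays, with 5 comparisons and Benjamini-Hochberg adjustment over all features, two-sided. The number of arrays limits the precision. All 10 members were named by rule, and pathway genes from the called genes of a list with the largest changes. The members and lists were chosen with earlier results of these data known, and the alternatives with earlier results known too. The test was tested on simulated data. Same-numbered arrays of a genotype correlated at -0.10 to 0.26 after group means were removed. For control replicates 1, 3 and 4 and fld replicate 4 the LPS array correlated best with the untreated array of its own number. For control replicate 2 and fld replicates 1, 2 and 3 it did not. Both arrays labelled fld replicate 4 also held the Lpin1 signal. The main fit used no pairing, and whether the numbers pair arrays is not settled. Protein sequences were not used here.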

Additional observations from a re-analysis of the deposited data

Results flagged for a closer look

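The Dusp8 level of control untreated replicate 3 was -0.62, far below the other 3 arrays of its group, which lay between 1.07 and 1.23. It was the 1 array that stood apart among 36 groups of 4 arrays examined, where chance alone picks out about 1 group in 20. Without that array the Dusp8 difference of LPS against untreated in control macrophages was 0.05 in place of 0.49, and that of fld against control untreated was 0.24 in place of 0.67. The second Dusp8 probe was also lowest on that array within its group, at -2.41, against -1.33 to -0.47 on the other 3. The mean level of the 5 mast cell markers was 0.47 on the same array, against 2.68 to 2.94 on the other 3, and all 5 were well above background there. In untreated fld cells the mast cell mean ran from 1.38 to 3.18 while Dusp8 stayed between 1.15 and 1.53. The part of these in the Dusp8 level was not tested.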

How the results depend on the processing

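The results were recomputed under 28 alternatives (27 for the difference of responses), 2 of which, every probe tested on its own and local background flags also set to missing, were chosen after seeing the data. No result of the 9 genes that was called changed sign. With LPS against untreated in fld macrophages 5 genes were called under all 28, and in control macrophages 5 or 6. Between genotypes in untreated cells the count was 0 except for 1 (Dusp16) without control untreated replicate 4 and without both arrays labelled fld replicate 4, so leaving out arrays gave 0 to 1. With LPS it was 0 except for 1 with normexp, 1 with the deposited table, 1 with only the groups compared and, over arrays left out, 0 to 1. The 1 gene with the deposited table was Dusp16 (-0.49, adjusted p = 0.0324), where the median of all features shifted by -0.40, and it was Dusp14 in the others. The cause was not tested. For the difference of responses the count was 0 under all 27.

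Scaling by the array median, as in the deposited table, moved the share of calls that were higher to 23.3% for fld against control with LPS (94.7% with the 75th percentile, 74.1% with quantile normalization), to 85.3% for fld against control untreated (95.8% with the 75th percentile) and to 29.6% for LPS against untreated in fld cells (54.6% with the 75th percentile, 67.2% with normexp and 65.2% without the filter). Features called ranged from 5393 to 8354 for LPS in fld and 4109 to 5962 for LPS in control cells, beside 9916 and 7792 where each of 25534 probes was tested on its own, and were 42 to 1704 for genotype untreated, 2045 to 8642 for genotype with LPS, and 0 to 13 for the difference of responses. With the replicate number as a block the 5 counts of the family were 5, 6, 0, 0 and 0, no call of the 9 genes changed, and no count of features moved by over 1.5 times except 1 in place of 0 for the difference of responses. For fld against control that block joined same-numbered arrays of different mice, so there it is no check of pairing. Those arrays correlated at -0.08 to 0.34 after group means were removed. The slide as a block was not run, since each group lay on its own slide. Signal close to background limits Dusp14, whose differences shrank with normexp.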
